A study of Mus musculus with 6 samples.

Results

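The 10 genes described here encode subunits of the Polycomb repressive complexes: Ezh2, Eed, Suz12 and Jarid2 of PRC2, and Rnf2, Ring1, Cbx7, Phc1, Pcgf6 and Kdm2b of PRC1. The genes were chosen by name, and their accessible regions by position: a region belonged to a gene when its midpoint lay inside the annotated limits of the gene or within 50 kb of them on the mm10 assembly. By this rule, 148 of the 69689 deposited regions belonged to the 10 genes, and none belonged to more than 1 of them. The regions nearest to the 50 kb limit were 1 of Kdm2b (605 bp, cluster 8) and 1 of Pcgf6 (353 bp, cluster 7) on its inner side, at 49.98 and 49.95 kb, and on its outer side 1 at 50.78 kb (472 bp, cluster 9) and 1 at 51.61 kb (1125 bp, cluster 8), both from Ring1.

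The regions came from ACC-seq, a Tn5 transposase assay of open chromatin, on 6 libraries of wild-type R1, an established line of mouse embryonic stem cells grown on feeder fibroblasts in serum, LIF and 2i, with the feeders removed by replating. Fresh cells (2 libraries) were not fixed and were tagmented at 37 °C, Fix cells (2 libraries) received 1% formaldehyde for 10 min, and Fix_1,6-Hex cells (2 libraries) met 10% 1,6-hexanediol, which dissolves many condensates, for 30 s before and again during the same fixation; both fixed groups were tagmented at 55 °C. The study asked how accessibility responds when condensates are perturbed. The deposited table gives 1 list for all libraries, with the position of each region and the name of 1 of 9 clusters, and no signal per library, so there is no replicate spread, no depth and no direction between treatments, and the sources used here do not say what a cluster stands for. All comparisons below are therefore descriptions of position, width and cluster, with no test.

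Polycomb proteins keep developmental genes silent in embryonic stem cells. PRC2 methylates histone H3 at K27, and PRC1 places ubiquitin on histone H2A; canonical PRC1 reads the PRC2 mark through a CBX protein, while variant PRC1 reaches CpG islands by other subunits. PRC1 with CBX and PHC proteins can also form nuclear condensates, the kind of structure that 1,6-hexanediol is used to probe.

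Each of the 10 genes had an accessible region at an annotated transcription start and a region within 1 kb of a gene limit (a gene end). Among all protein-coding genes, 60.9% had a region at a gene end, and 61.4% of those with a start in RefSeq's promoter table had a start inside a region. The regions at member starts were mostly wide, with a median of 1924.5 bp over 10 regions and a range of 834 to 3731 bp. The median was 1176.5 bp (quartiles 828 and 1730 bp) over the 10240 distinct regions that hold a start of any protein-coding gene. The start regions of Ring1 (1117 bp) and Kdm2b (834 bp) were narrower than this. The 5 members with start regions in cluster 3 or 4 were the 4 PRC2 genes and Ring1. Of all genes with a start region, 30.6% had one in cluster 3 or 4. Joining these clusters was not among the planned comparisons.

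**Figure D1:**
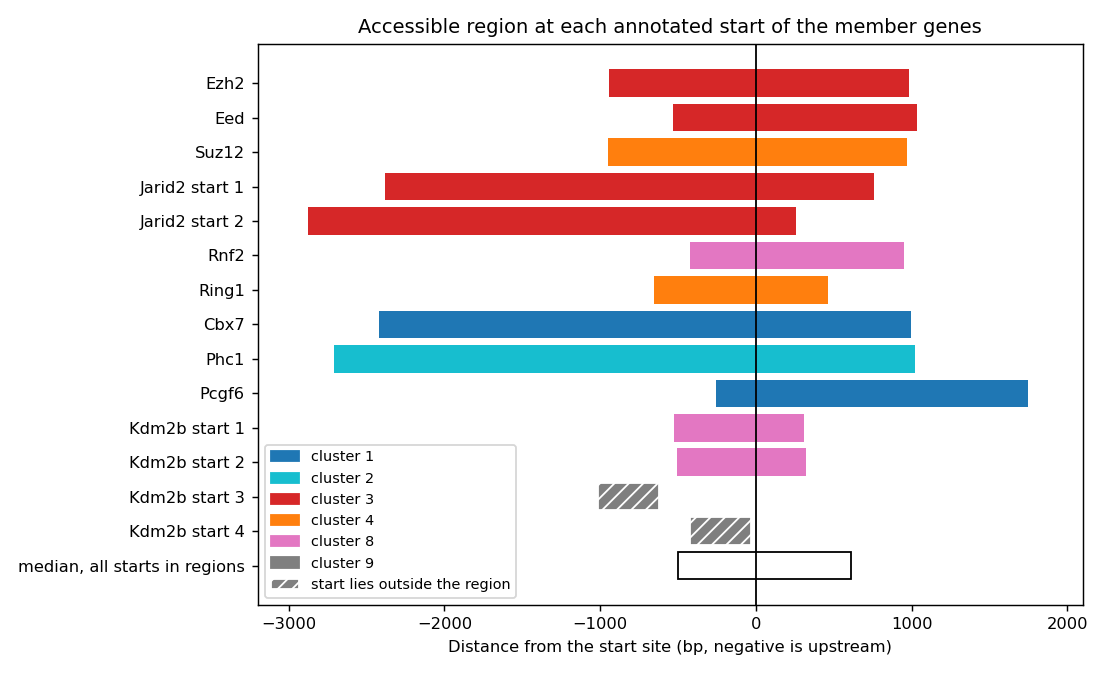
Extent of the accessible region around each RefSeq start of the 10 genes, in bp from the start along the direction of transcription, coloured by cluster; several starts of 1 gene are numbered by genome position, hatched bars are the nearest region where the start lies outside it, and the open bar is the median over all protein-coding starts inside regions. The regions of Jarid2, Cbx7 and Phc1 reach over 2 kb upstream, and the 2 outer starts of Kdm2b lie outside a region.

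The sequence just upstream of the start differed widely among the 10 genes, and 1 example for each cluster found at a start is shown, as the 250 bases before the start from RefSeq on GRCm38.p6 (mm10 coordinates). All 10 genes were matched by symbol. Ezh2 (chr6:47595031-47595280, minus strand) stands for cluster 3, Suz12 (chr11:79992856-79993105, plus strand) for cluster 4, Rnf2 (chr1:151500992-151501241, minus strand) for cluster 8, Cbx7 (chr15:79932647-79932896, minus strand) for cluster 1 and Phc1 (chr6:122340228-122340477, minus strand) for cluster 2. Capitals mark exact matches, on either strand, to the motifs listed in the next paragraph.
Ezh2: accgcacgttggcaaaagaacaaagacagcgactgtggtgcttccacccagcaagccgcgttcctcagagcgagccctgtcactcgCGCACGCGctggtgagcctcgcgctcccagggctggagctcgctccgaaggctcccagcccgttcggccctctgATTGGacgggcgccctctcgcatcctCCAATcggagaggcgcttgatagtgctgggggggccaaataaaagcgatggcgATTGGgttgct
Suz12: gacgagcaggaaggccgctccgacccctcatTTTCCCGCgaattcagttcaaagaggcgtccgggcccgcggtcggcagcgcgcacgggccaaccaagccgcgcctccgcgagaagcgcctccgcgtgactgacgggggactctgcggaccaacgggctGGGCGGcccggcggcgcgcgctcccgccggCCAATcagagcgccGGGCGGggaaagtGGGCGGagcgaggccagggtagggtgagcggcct
Rnf2: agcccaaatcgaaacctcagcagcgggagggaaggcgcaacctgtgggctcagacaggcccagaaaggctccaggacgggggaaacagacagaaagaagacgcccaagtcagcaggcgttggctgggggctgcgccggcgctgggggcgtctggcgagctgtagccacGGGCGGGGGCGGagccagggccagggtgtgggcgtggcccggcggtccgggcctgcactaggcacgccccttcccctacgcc
Cbx7: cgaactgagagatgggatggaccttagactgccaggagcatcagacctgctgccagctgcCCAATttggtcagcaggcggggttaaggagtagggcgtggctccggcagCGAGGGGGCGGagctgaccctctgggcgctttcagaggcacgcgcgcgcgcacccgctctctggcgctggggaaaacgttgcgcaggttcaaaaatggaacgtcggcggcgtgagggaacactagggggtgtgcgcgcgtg
Phc1: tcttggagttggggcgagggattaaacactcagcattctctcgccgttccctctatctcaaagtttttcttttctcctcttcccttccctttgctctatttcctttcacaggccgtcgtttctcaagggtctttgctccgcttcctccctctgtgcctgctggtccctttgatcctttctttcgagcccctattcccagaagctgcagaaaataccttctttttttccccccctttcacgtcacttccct

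The capitals in Ezh2 are 1 NRF1 match (CGCANGCG) and 3 copies of CCAAT, the CCAAT box. Suz12 holds 3 GC boxes (GGGCGG, the core bound by SP and KLF factors), 1 CCAAT box and 1 E2F match (TTTCCCGC). Rnf2 holds 2 adjoining GC boxes, and Cbx7 a CCAAT box and a GC box that overlaps a CTCF core match (CNAGGNGGC). Phc1 had no match to any of the 14 motifs in its 300 bases, which run from 250 before to 50 after the start. The 10 genes have 14 listed starts, 12 of them in a region, and windows of 1 gene can share bases. A GC box was found in 10 of the 14 windows (46.2% of all protein-coding promoters) and in 9 of the 12 whose start lies in a region (69.1% of all such promoters). CCAAT was found in 8 of 14 (38.2%), all 8 among the 12 in a region (38.5%). The NRF1 motif was found in 5 of 14 (11.1%) and in 4 of the 12 in a region (17.96%), since the match of Kdm2b is at an outer start outside a region. Each of the following was found in 1 window, whose start lies in a region, and the shares are those of all promoters and of promoters in a region: the first E2F motif in Suz12 (1.41% and 2.15%), the second (TTTGGCGC) in Ezh2 (0.635% and 0.945%), the YY1 motif ATGGCGGC in Ring1 (3.02% and 4.87%), TATAAA in Jarid2 (12.6% and 5.91%) and the CTCF core in Cbx7 (9.96% and 13.7%). The other 6 motifs had no match in these windows, and their shares, in the same order, were 11.6% and 17.96% for the ETS motif CCGGAAG, 2.23% and 3.31% for the CREB and ATF motif TGACGTCA, 7.84% and 10.4% for the E-box CACGTG, 4.08% and 2.76% for the ESRRB-type motif AAGGTCA, 1.66% and 1.44% for the POU octamer ATGCAAAT, and 1.17% and 1.23% for the STAT motif TTCCNGGAA.

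The CpG content of the starts ran opposite to the width of the regions at its 2 extremes. CG dinucleotides in the 300 bases numbered 9 at Phc1, 17 at Eed, 22 at Pcgf6, 24 and 23 at the starts of Jarid2, 30 at Rnf2, 31 at Ezh2, 33 at Cbx7, 37 at Ring1, 41 at Suz12 and 49 and 47 at the inner starts of Kdm2b. The median was 13 over all protein-coding promoters and 22 over those whose start lies in a region. Phc1, with the fewest, had the widest start region (3731 bp), and Kdm2b, with the most, had the narrowest (834 bp). The genes between followed no such order: Cbx7, with 33, had a region of 3416 bp, and Ring1, with 37, one of 1117 bp.

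**Figure D2:**
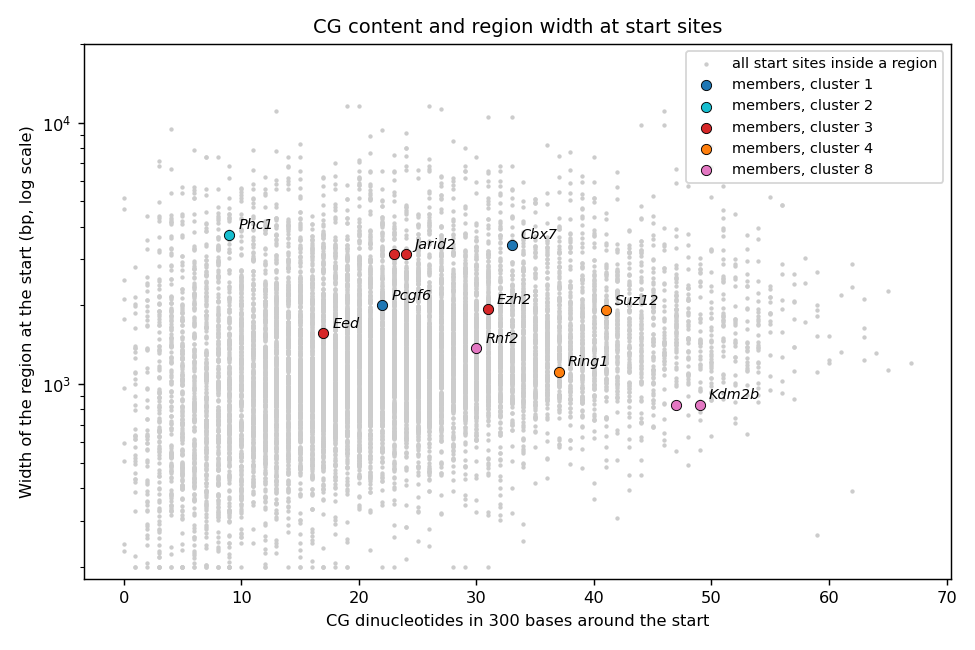
Width of the accessible region at a start (bp, log scale) against the number of CG dinucleotides in the 300 bases around that start; grey points are all protein-coding start sites inside a region and coloured points the starts of the 10 genes, by cluster. Phc1 (9 CG, 3731 bp) and Kdm2b (47 and 49 CG, 834 bp) are at opposite corners of the members.

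Of the PRC2 genes, Ezh2, which encodes the catalytic H3K27 methyltransferase, had the fewest regions. The gene spans 47530274 to 47595270 of chromosome 6 (65.0 kb, minus strand), and only 6 regions lay in it or within 50 kb, where 1979 other genes of like length (within 25%) had a median of 7. Its start region, 47594046 to 47595975 (1930 bp, cluster 3), reached 945 bp upstream and 984 bp downstream of the start and also held the start of F830010H11Rik, another annotated gene. The other 5 were narrow, from 267 to 507 bp. They lay 6.82 kb (cluster 6), 13.2 kb (cluster 7) and 38.4 kb (cluster 1) upstream, 34.7 kb into the gene (cluster 9, the only other region inside it) and 35.5 kb beyond its far limit, within Cul1 (cluster 1). Between the last pair ran 65.4 kb without a region, the longest such stretch around any of the 10 genes. Regions covered 2.44% of the sequence examined around Ezh2 and 7.36% to 14.8% around each of the other 9 genes.

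Eed encodes the subunit that binds methylated H3K27 and stimulates the enzyme. Around it (chromosome 7, 89954654 to 89980976, minus strand) lay 11 regions, 4 of cluster 7, 3 of cluster 6, 2 of cluster 5 and 1 each of clusters 3 and 4. The start region (89979943 to 89981505, 1563 bp, cluster 3) was followed 4.64 kb downstream of the start by a cluster 4 region of 1777 bp inside the gene. A pair of wide cluster 6 regions flanked the gene, 1 of 2563 bp 43.3 kb upstream and 1 of 2897 bp 14.6 kb beyond its far limit, the latter holding the start of Hikeshi. None of the 11 belonged to cluster 1, 2, 8 or 9, although clusters 1 and 9 are the most numerous around the 10 genes.

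Suz12, the scaffold of PRC2 (chromosome 11, 79993106 to 80034123, plus strand), had 15 regions, more than 89.8% of the 2548 genes of like length. Its start region was 1919 bp wide (79992159 to 79994077, cluster 4) and nearly centred on the start, with 947 bp upstream and 971 bp downstream. The widest region around any of the 10 genes lay 17.7 kb upstream of Suz12 (79972854 to 79977959, 5106 bp, cluster 3), and 99.6% of all deposited regions are narrower. It held no listed start, no protein-coding gene end lay within 1 kb of its midpoint, and the only annotated gene end there was that of Gm30875; the nearest protein-coding gene was Utp6. A cluster 5 region of 2008 bp lay 13.03 kb upstream. In contrast to these, the 2 other regions inside the gene, at 18.9 and 23.5 kb from the start, were of cluster 9 and measured 200 and 223 bp. Cluster 9 held 7 of the 15.

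Jarid2 encodes an accessory subunit that helps PRC2 bind and act on chromatin. It is the longest of the 10 genes (chromosome 13, 44730774 to 44921643, plus strand, 190.9 kb) and had the most regions, 31, against a median of 9 in 784 genes of like length, of which 2.17% had more. Inside the gene were 20 regions, against a median of 5. The wide ones stood around the start. A cluster 3 region of 3139 bp (44728392 to 44731530) held both annotated starts, and cluster 4 regions lay 3.74 kb into the gene (3019 bp) and 7.99 kb (1941 bp) and 24.7 kb (3752 bp) upstream. Between the latter pair stood 3 cluster 1 regions of 460 to 961 bp, and a cluster 6 region of 335 bp lay 3.76 kb upstream. From 17.6 kb into the gene to its far limit all 19 regions were narrower. They measured 200 to 922 bp, and 15 of them belonged to cluster 7 or 9. The fourth cluster 4 region of the window (1622 bp) lay in Dtnbp1, 18.3 kb past the end of Jarid2.

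Among the PRC2 genes, 6 regions of cluster 3 or 4 lay away from every protein-coding gene end: those inside Eed and upstream of Suz12, and the 4 cluster 4 regions of Jarid2. The PRC1 genes had no such region. Over all 10 genes this makes 6 of 16 regions of clusters 3 and 4, near the 36.6% that lie away from protein-coding gene ends among all 4938 regions of these clusters.

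**Figure D3:**
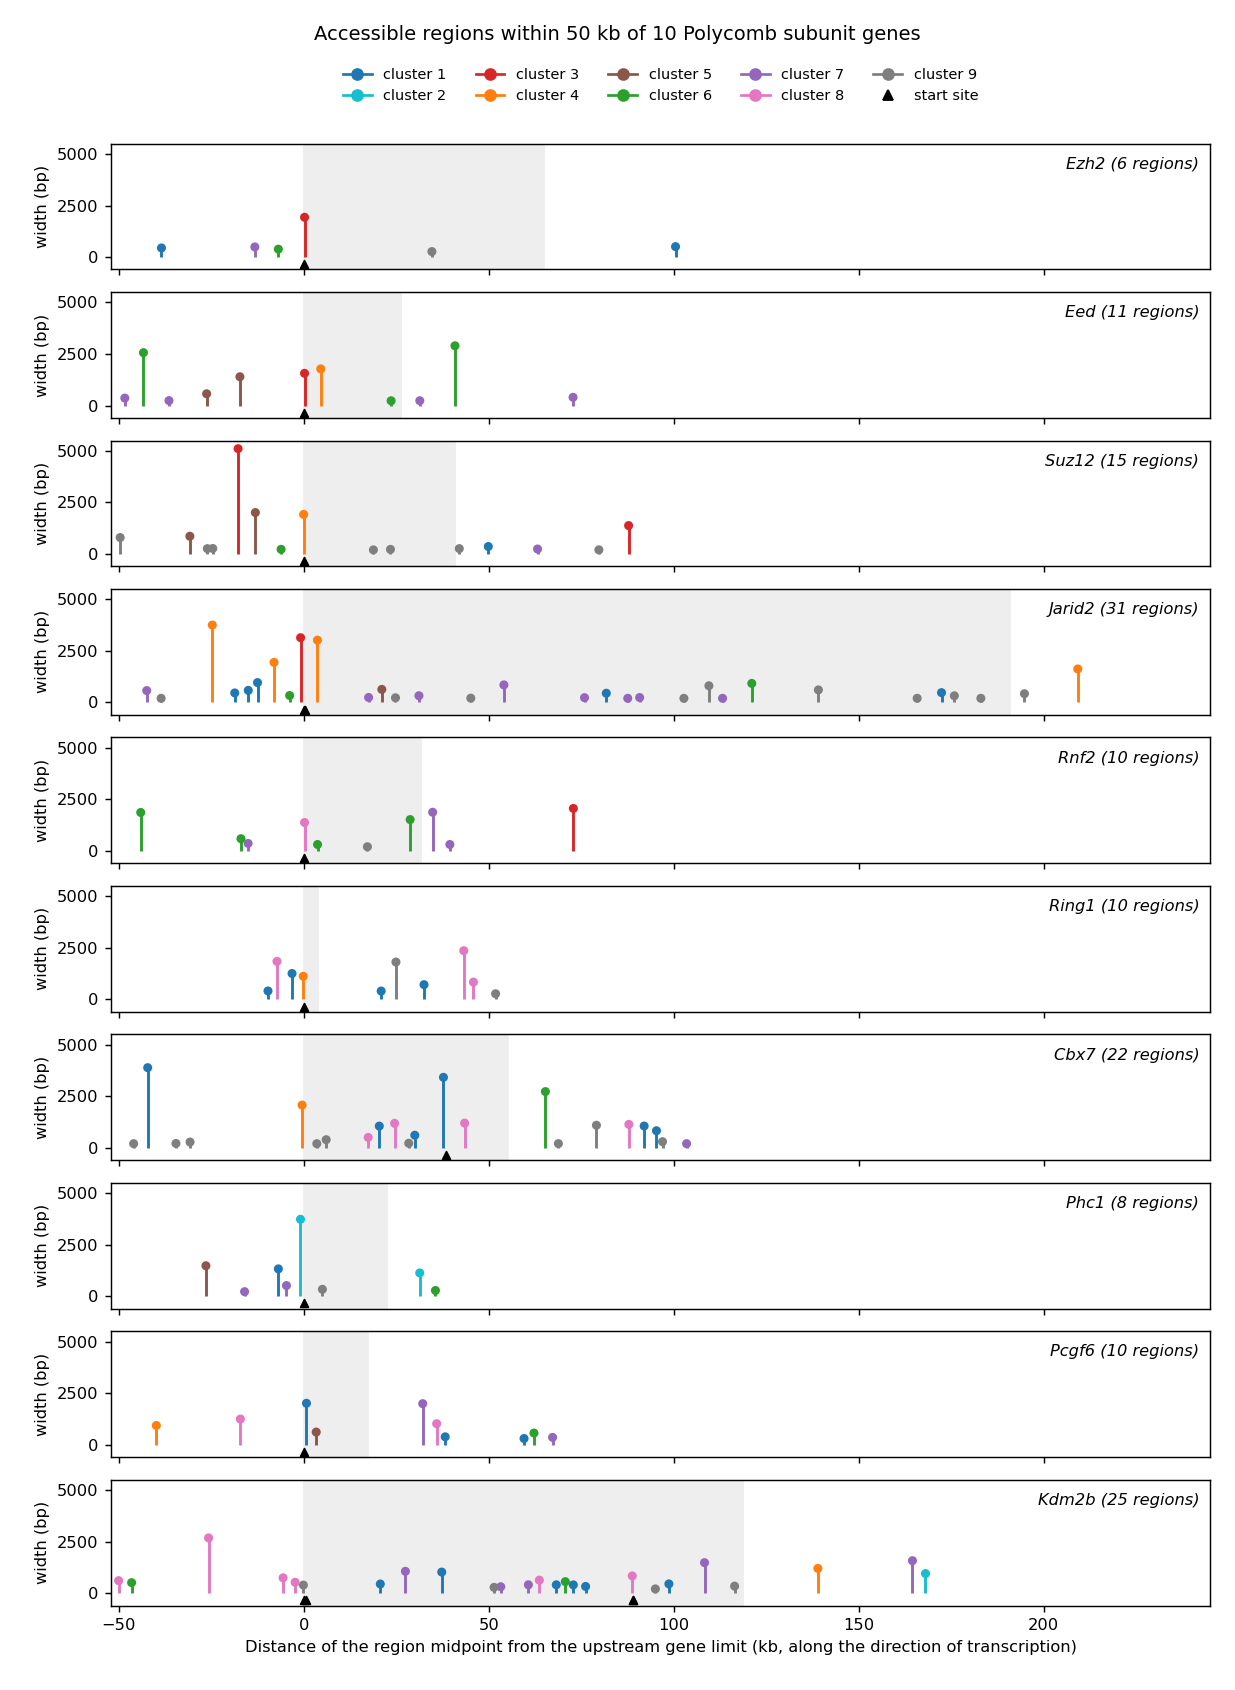
Accessible regions of each gene by the distance of their midpoint from the upstream gene limit (kb, along the direction of transcription), with region width (bp) as height and cluster as colour; grey bands are the genes and triangles the RefSeq starts. Wide regions stand at the starts of most genes and upstream of Suz12 and Jarid2, and the bodies of the long genes Jarid2 and Kdm2b hold many narrow ones.

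The 2 catalytic subunits of PRC1, Rnf2 and Ring1, are paralogous ubiquitin ligases for histone H2A, with RNF2 (RING1B) the main one in stem cells. Rnf2 (chromosome 1, 151469398 to 151500991, minus strand) and Ring1 (chromosome 17, 34020792 to 34024680, minus strand) each had 10 regions. At Rnf2 the start region (151500041 to 151501415, 1375 bp) belonged to cluster 8. Of all genes with a start region, 24.6% had one in this cluster, and Kdm2b was the other member with one. Around Rnf2 were 4 regions of cluster 6, 2 of them inside the gene (310 bp, 3.77 kb from the start, and 1517 bp, 28.8 kb from it), and 3 of cluster 7, among them 1 of 1874 bp, 3.28 kb past the gene's far limit. Ring1 had no region of cluster 6 or 7. Its start region (34024219 to 34025335, 1117 bp) belonged to cluster 4 and reached 655 bp upstream. Ring1 is only 3.9 kb long, no region midpoint lay inside it, and its start region was the only one for which Ring1 was the nearest protein-coding gene. Other genes of this part of the major histocompatibility complex took the rest. Examples are the cluster 1 region between H2-Ke6 and Slc39a7 (1253 bp, 3.12 kb upstream), the cluster 8 region between Slc39a7 and Rxrb (1841 bp, 7.19 kb upstream) and the cluster 9 region at the class I gene H2-K1 (1808 bp). H2-K1 belongs to a family of similar genes, so placement of reads there is less certain.

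Cbx7 encodes the chromodomain protein that predominates in canonical PRC1 of embryonic stem cells. It had the densest set of regions of the 10 genes, 22 in and around 55.3 kb of chromosome 15 (79915804 to 79971143, minus strand), or 14.2 per 100 kb, against a median of 4.74 over protein-coding genes. Only 0.595% of 2186 genes of like length had more, and regions covered 14.8% of the sequence examined. Of the 22 regions, 9 had their midpoint inside Cbx7. Those outside, except the region at the upstream limit, had Apobec3 or Pdgfb as the nearest protein-coding gene. The RefSeq start lies 38.5 kb inside the upstream gene limit, in a cluster 1 region of 3416 bp (79931649 to 79935064) that reached 2418 bp upstream. Cluster 1 was found at the starts of Cbx7 and Pcgf6, and at 18.1% of all genes with a start region. A cluster 4 region of 2071 bp (79970516 to 79972586) stood at the upstream limit, where no start is listed in the promoter table. Between these 2 regions lay 7 others, of clusters 1, 8 and 9, the widest of them 1184 bp. The widest region around Cbx7 (3884 bp, cluster 1) lay 42.1 kb upstream and inside Pdgfb, and a cluster 6 region of 2724 bp lay 10.0 kb downstream within Apobec3.

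Phc1 encodes a polyhomeotic protein whose SAM domain links PRC1 complexes to each other. It was the only member with a start region in cluster 2, found at 10.5% of genes with a start region. This region (chromosome 6, 122339204 to 122342934) measured 3731 bp, wider than 99.4% of the cluster 2 regions that hold a start, and reached 2707 bp upstream of the start and 1023 bp downstream. Only 4.40% of start sites inside regions had over 2 kb of their region upstream. Phc1 (122317731 to 122340227, minus strand) had 8 regions. Only 1 had its midpoint inside the gene, a cluster 9 region of 336 bp. Upstream stood regions of cluster 7 at 4.63 kb (517 bp), cluster 1 at 6.82 kb (1326 bp), cluster 7 at 15.95 kb (222 bp) and cluster 5 at 26.4 kb (1478 bp). The second cluster 2 region of the window (1130 bp) lay at an end of M6pr.

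Pcgf6 and Kdm2b belong to variant PRC1. PCGF6 defines a form that silences germline genes in stem cells, and KDM2B binds unmethylated CpG through a CXXC zinc finger and brings another form to CpG islands. At Pcgf6 (chromosome 19, 47033617 to 47050939, minus strand) the start region (47049157 to 47051164, 2008 bp, cluster 1) lay mostly in the gene, with 1749 bp downstream and 258 bp upstream of the start. The other region inside it was of cluster 5 (611 bp). The remaining 8 of its 10 regions were nearer to other genes, among them a cluster 8 region at the starts of Nt5c2 and Ina (1018 bp), another at the start of Taf5 (1244 bp) and a cluster 4 region shared by the starts of Atp5md and Pdcd11 (930 bp).

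Kdm2b was the only member with annotated starts outside a region. The gene (chromosome 5, 122870664 to 122989270, minus strand, 118.6 kb) has 4 RefSeq starts. Both inner ones, 88.9 kb inside the upstream limit, lay in a cluster 8 region of 834 bp (122900043 to 122900876) and are the starts of shorter transcripts. Both outer ones missed the nearest region, by 32 and 624 bp. That region (122989131 to 122989521, 391 bp, cluster 9) held the start of A930024E05Rik, another annotated gene. Kdm2b counted as having a gene-end region because of it. A pair of cluster 8 regions followed 2.29 kb (525 bp) and 5.54 kb (743 bp) upstream. With 25 regions Kdm2b had more than 97.3% of the 1308 genes of like length, and 16 regions lay inside it, against a median of 4. Those inside were 6 of cluster 1, 4 of cluster 7, 3 of cluster 9, 2 of cluster 8 and 1 of cluster 6. From 122912909 to 122921191, 3 of the cluster 1 regions and the cluster 6 region followed one another, each 324 to 556 bp wide.

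By number, 9 of the 10 genes had more regions than the median of genes of like length, and Ezh2 had fewer. This comparison matched genes on length alone, and the 50 kb on each side take in regions nearer to other genes. Ring1 and Pcgf6 each had 5 other protein-coding genes within 50 kb. The median was 10.5 regions per member (range 6 to 31) against 7 (quartiles 3 and 11) for all 21887 protein-coding genes, 9.17 against 4.74 per 100 kb, and 8.34% against 3.45% of the sequence covered. The share of genes of like length with more regions was 0.595% for Cbx7, 2.06% for Kdm2b, 2.17% for Jarid2 and 7.46% for Suz12. It was 22.1% for Eed, 26.9% for Ring1, 27.5% for Rnf2, 29.0% for Pcgf6, 40.3% for Phc1 and 57.4% for Ezh2.

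**Figure D4:**
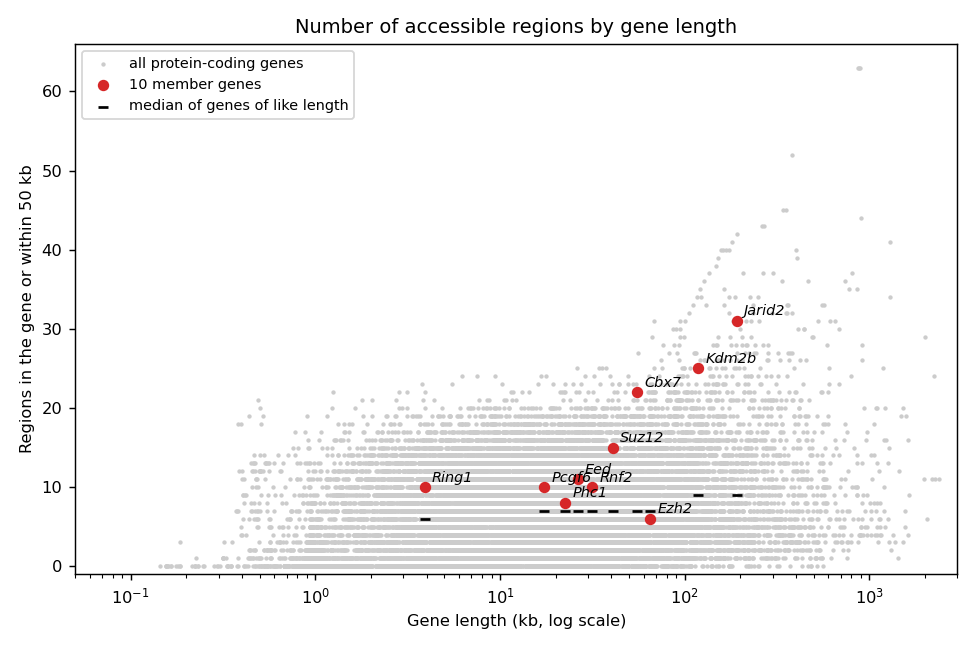
Number of accessible regions inside each gene or within 50 kb of it, against gene length (kb, log scale); grey points are all protein-coding genes, red points the 10 members and black dashes the median of genes within 25% of each member's length. Jarid2 (31), Kdm2b (25) and Cbx7 (22) lie far above their dashes, and Ezh2 (6) lies below.

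The clusters of the 148 regions were spread much like those of all regions. Cluster 9 held 35 (23.65%, against 26.2% of all regions), cluster 1 held 28 (18.9%, against 18.7%), cluster 7 held 27 (18.2%, against 18.95%), clusters 6 and 8 held 16 each (10.8%, against 12.7% and 9.04%), cluster 4 held 10 (6.76%, against 3.47%), cluster 5 held 7 (4.73%, against 5.06%), cluster 3 held 6 (4.05%, against 3.61%) and cluster 2 held 3 (2.03%, against 2.27%). Cluster 6 and cluster 7 were each found around 9 genes, Ring1 being the exception for both, and cluster 4 around 7. Inside the genes lay 60 regions, upstream 49 and downstream 39. At a protein-coding gene end were 23 (15.5%, against 18.95% of all regions), 10 of them at a member's own end. For 93 of the 148, the member was the nearest protein-coding gene. The median width was 540.5 bp, against 474 bp for all regions, and cluster 3 had the highest median among the 10 genes (1994 bp) and cluster 9 the lowest (260 bp).

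**Figure D5:**
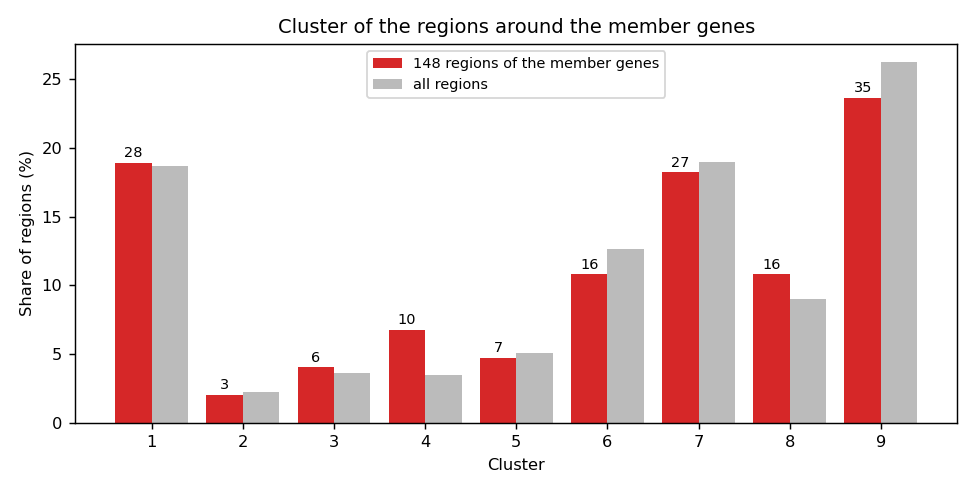
Share of regions (%) in each of the 9 clusters, for the 148 regions of the 10 genes (red, with counts above the bars) and for all 69689 regions (grey). Cluster 9 is the most frequent in both, and cluster 4 holds 6.76% of the member regions and 3.47% of all.

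Most of the other Polycomb genes also had a gene-end region. Of 53 further genes, taken from a list of partners by complex, 49 (92.5%) had one, beside 60.9% of all protein-coding genes. Of the 43 with a listed start, 40 had a start inside a region, beside 61.4% of all protein-coding genes with a listed start. By complex, a gene-end region was found at 10 of 11 PRC2 partners, 9 of 10 genes of canonical PRC1, 19 of 20 of variant PRC1, 10 of 10 of the deubiquitinase complex PR-DUB and 1 of 2 H3K27 demethylases. Of the 40 genes with a start region, 13 (32.5%) had one in cluster 3 or 4, near the 30.6% of all genes with a start region. Cluster 1 was found at 14 (18.1% of all such genes), cluster 2 at 6 (10.5%) and cluster 8 at 5 (24.6%). Cluster 3 or 4 took 2 of 9 PRC2 partners (22.2%, beside 30.6% of all genes with a start region) and 4 of 4 PRC2 members. Joining these 2 clusters was not planned, and it matches where the member starts fall: Ezh2, Eed and Jarid2 in cluster 3, Suz12 in cluster 4. The members therefore cannot serve as support for the grouping, and the difference from the partners was not tested.

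In the list of partners, Ezh1, the paralog of Ezh2, had a start region in cluster 8 (929 bp), and the histone-binding Rbbp4 and Rbbp7 had theirs in clusters 2 and 5. Of the CBX genes, Cbx2 and Cbx6 had gene-end regions in cluster 1, and Cbx8 had its gene-end region in cluster 4. The member Cbx7 had a gene-end region in cluster 4 and a start region in cluster 1. The PCGF genes Pcgf1, Pcgf3 and Pcgf5 had gene-end regions in clusters 3, 4 and 1. In PR-DUB, which removes ubiquitin from H2A, Bap1, the enzyme, had a start region in cluster 8, Asxl1 in cluster 4 and Asxl2 in cluster 3. The demethylase gene Kdm6b had a gene-end region in cluster 1. The genes without a gene-end region were Ezhip, an inhibitor of PRC2, Scml2, Bcor and the demethylase gene Kdm6a. Scml2 and Kdm6a nevertheless had a start inside a region, of cluster 7 (451 bp) and cluster 4 (2500 bp).

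The marker genes of the labelled cell type were checked in the same way, beside the 60.9% of all protein-coding genes with a gene-end region. All 8 stem cell markers had one: Pou5f1, Nanog, Sox2, Klf4, Esrrb, Zfp42, Tfcp2l1 and Dppa4. Of 9 markers of feeder fibroblasts, 5 (55.6%) had one, a share near that of all genes: Col1a1, Col1a2, Thy1, Pdgfrb and Twist2, with 3 to 11 regions in or around each. Col1a2 and Twist2 also had a start inside a region, of 1216 and 1844 bp, both of cluster 9. Col3a1 (4 regions) and Postn (1 region) had no gene-end region, and Lum and Dcn had no region within 50 kb. Whether DNA of feeder cells contributed to any region around the Polycomb genes was not tested.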

How the data were processed

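The authors deposited, for the whole series of 6 ACC-seq libraries, 1 table of region positions with a cluster name for each, and no score or signal. Per the submitters' processing notes, the tools were Bowtie2 2.3.3.1, SAMtools 1.6, cutadapt 1.18 and Picard, and the build mm10. The sources used here do not say how regions were called, merged or clustered, and depth is unknown. The narrowest deposited width, 200 bp, is shared by 4600 regions.

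Coordinates were shifted from BED to browser numbering, with the first base as 1. Regions were placed by midpoint against RefSeq gene limits (GRCm38.p6, 21887 protein-coding genes on chromosomes 1 to 19, X and Y), and starts came from RefSeq's promoter table (17492 of these genes). The table gives no exons, introns or UTRs. Genes of like length are those within 25% of a member's length. Motifs were exact matches on both strands in 300 bases. The counting was tested on simulated regions.

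The 10 members, the lists and the settings were chosen with earlier results of these data known. All members are named, with the first 3 genes of each partner list that have a gene-end region and every gene without one, except 1 gene that is not reported here. Planned fits between groups had no values to run on. The work used matplotlib 3.10.9, pandas 2.3.3, SciPy 1.17.1, numpy 2.4.6 and Python 3.11.15.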

Additional observations from a re-analysis of the deposited data

How the results depend on the processing

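No paired analysis was possible because the table holds no value per library, and for the same reason no replicate could be left out. Of 22 counts and medians recomputed under the planned settings, 17 stayed within 1.5 times. Counting only regions nearest to a member gave 93 regions in place of 148. The 35 cluster 9 regions became 23 of 102 within 20 kb and 22 of 93 with nearest genes only, where their share stayed at 22.55% and 23.66% (23.65% of the 148). Among the 110 regions of at least 300 bp they became 11, a share of 10.0%, and cluster 1 was the most frequent (24.55%). The median per protein-coding gene, 7, was 4 over all annotated genes. With gene ends of 500 bp, 7 of 10 members had a region (49.3% of all genes) and Jarid2, Phc1 and Pcgf6 did not. Their starts lie inside wide regions whose midpoints are farther off. Of the 53 other Polycomb genes, 40 had a gene-end region at 500 bp and 50 at 2.5 kb, in place of 49.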

Other observations

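The 4 other Polycomb genes without a gene-end region, Ezhip, Scml2, Bcor and Kdm6a, all lie on the X chromosome. Of the 53 genes in the list, 8 are X-linked, and 4 of these 8 had a gene-end region, as did 45 of the 45 autosomal ones. These counts hold for gene ends of 1 kb. With gene ends of 500 bp, 40 of the 53 had a region. The autosomal Mtf2, Lcorl, Cbx6, Pcgf1, Pcgf2, Pcgf5, Wdr5 and Mbd6 were then without one, as was the X-linked Hcfc1. With 2.5 kb, 50 had a region, and Ezhip, Scml2 and Bcor did not. At starts, 5 of 8 X-linked genes and 35 of 35 autosomal genes with a listed start had one inside a region, the exceptions being Ezhip, Bcor and Bcorl1. The shares over all protein-coding genes with a listed start were 42.6% of 817 on the X chromosome and 63.1% of 16457 on autosomes. Over all protein-coding genes a gene-end region was found at 41.6% of 966 genes on the X chromosome and 62.5% of 20665 on autosomes, and the median number of regions per gene was 2 and 7. The X-linked genes with a gene-end region included Rbbp7 (start region of 2075 bp, cluster 5) and the PR-DUB partners Ogt (2041 bp, cluster 6) and Hcfc1 (3598 bp, cluster 6), the nutrient-sensing glycosyltransferase and its substrate. This split by chromosome was noticed after the values were seen and was not tested; the 10 members described above are all autosomal.

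Among the partners, 3 genes had start regions wider than any of the 10 members. Aebp2, a DNA-binding cofactor of PRC2, had a start in a region of 5394 bp (cluster 5) among 27 regions in and around the gene. Pcgf2, which encodes the paralog of BMI1, had one in a region of 5269 bp (cluster 1), and Wdr5 in one of 5046 bp (cluster 1). Usp7, a deubiquitinase found with variant PRC1, had 31 regions, as many as Jarid2. These genes were singled out after their values were seen.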
